A study of Mus musculus with 5 samples.

Results

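The genes of the cytosolic ribosomal proteins were examined in hematopoietic stem cells (HSCs) from mouse bone marrow. Members were chosen by gene name alone, as genes named Rpl or Rps with a number, together with Rpsa and the stalk genes Rplp0, Rplp1 and Rplp2. Ribosomal S6 kinase genes and names ending in -ps were left out. The rule took 89 of 55335 genes. Of these, 77 are the core set, 31 of the small and 46 of the large subunit, and the other 12 are paralogs or copies such as Rps27l, Rpl22l1 and Rpl3l. The annotation calls 6 of the 12 pseudogenes. The core genes lie on 19 chromosomes, with 4 on the X chromosome.

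The cytosolic ribosome is assembled from ribosomal RNA and one copy of most of these proteins, so the genes are usually transcribed at high and coordinated levels. Most of their mRNAs start with a C followed by a run of pyrimidines, the terminal oligopyrimidine tract, through which mTOR and Larp1 control their translation. HSCs are known for a low rate of protein synthesis, and loss of a single copy of genes such as RPS19 or RPL11 causes Diamond-Blackfan anaemia in humans.

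HSCs were sorted as Kit+ Sca-1+ Lin- cells without CD48 and with CD150 from 3-week-old mice. There were 3 libraries labelled wild-type (WT1, WT2, WT3) and 2 labelled RankCre-ki (ki1, ki2), all labelled C57BL/6J. RankCre-ki mice carry Cre in 1 Rank allele, and their Csf1r alleles are a floxed one and a null one. Per the study, which cites earlier work, this Cre recombines in embryonic macrophages, osteoclasts included, and not in the HSCs. Its methods state that the null Csf1r allele was kept on C3H/HeJ. No label names the animals behind a library, so a p-value measures the spread between these libraries, which may be technical. The numbers that end the library names were 90, 90 and 80 for WT1, WT2 and WT3 and 80 and 86 for ki1 and ki2, read as cells per library. The names form 2 series. WT1 and ki2 are series 1, and WT2, WT3 and ki1 are series 2. The study's methods describe 1 tagmentation kit for 1 mutant and 1 control sample (method 1) and another for 1 mutant and 2 controls (method 2). By composition these sets match series 1 and series 2, but no label names the kit of a library.

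Values are TPM, a share of the transcripts of each library corrected for gene length. TPM hold no depth, so no counting error can be given. Genes with at least 1 TPM numbered 9021 to 11084 in the wild-type and 12801 and 16386 in the RankCre-ki libraries. All 10 HSC markers were tested, and their TPM summed to 382 to 902 in wild-type and 744 and 1288 in RankCre-ki libraries. For 27 markers of cells outside the gate the sums were 199 to 257 in wild-type libraries, 371 in ki1 and 997 in ki2, most of the latter from Hbb-bt, a beta-globin, at 632 TPM. Of these markers 7 were at 0 in all libraries, among them Cd79a, Adgre1, Elane, Ly6g and Ncr1. Of the 12 that could be tested, 5 were higher in RankCre-ki libraries at an unadjusted limma p under 0.05, against 6.34% of all genes. They were Hbb-bt, Cd48, S100a8, Klrb1c and Csf1r. Cd48, S100a8, Klrb1c and Csf1r reached 1 TPM in 2 libraries only because of the RankCre-ki libraries, where they are high. They could not have been lower, so their differences are a description and not a test. Cd48, which the sort selects against, was at 4.92 TPM in ki1 and 5.62 TPM in ki2, and at 0 in WT1, WT2 and WT3. S100a8 was at most 0.0677 TPM in wild-type and at 8.31 and 12.9 TPM in RankCre-ki libraries, Klrb1c at most 0.0516 and at 4.40 and 12.8 TPM, and Csf1r at most 2.39 and at 17.5 and 6.46 TPM. Not all markers of these cell types did so. S100a9 was at 2.17 TPM in WT1 and at 0 elsewhere. Hba-a1, an alpha-globin, was at 31.6, 0 and 3.78 TPM in wild-type and 1.58 and 2.87 TPM in RankCre-ki libraries. Of the 12 tested, 11 had a log2 fold change above 0. The Y-linked Eif2s3y was at 41.6 TPM in WT1 and 62.5 in ki2 and at most 0.288 in the other libraries, and Xist ran the opposite way, although ki2 is labelled female. Series and transcript sex therefore cannot be told apart. The part of these markers in the results below was not tested.

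Sequences of 3 start sites are shown as examples of the oligopyrimidine tract, in 2 genes that differed strongly between the series, Rpl38 and Rps27, and in Rps6, which did not. Each start window runs from 25 bases before to 25 bases from the RefSeq start site (GRCm38.p6), and capitals mark the C and the pyrimidines that follow it at the start.
Rpl38, chr11:114668555-114668604, plus strand: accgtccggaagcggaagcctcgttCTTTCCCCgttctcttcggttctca
Rps27, chr3:90213624-90213673, minus strand: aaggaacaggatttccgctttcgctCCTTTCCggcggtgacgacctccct
Rps6, chr4:86857343-86857392, minus strand: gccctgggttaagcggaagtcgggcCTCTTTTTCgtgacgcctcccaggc
The tract was 8, 7 and 9 bases long in Rpl38, Rps27 and Rps6.

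Rps27 and its paralog Rps27l have coding sequences of equal length, 255 bases with the stop codon. They differ at 61 bases (76.1% identity), and their longest identical run is 11 bases. Capitals mark the bases that differ. Rps27 is on chromosome 3 (gene at chr3:90212522-90213651, minus strand, GRCm38) and Rps27l on chromosome 9 (gene at chr9:66946086-66949516, plus strand).
Rps27: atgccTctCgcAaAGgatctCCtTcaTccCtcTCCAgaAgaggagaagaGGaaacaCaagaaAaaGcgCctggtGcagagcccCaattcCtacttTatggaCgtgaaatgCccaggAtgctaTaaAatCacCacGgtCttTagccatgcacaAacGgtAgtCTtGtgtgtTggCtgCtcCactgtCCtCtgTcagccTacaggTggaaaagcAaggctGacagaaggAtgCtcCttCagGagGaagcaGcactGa
Rps27l: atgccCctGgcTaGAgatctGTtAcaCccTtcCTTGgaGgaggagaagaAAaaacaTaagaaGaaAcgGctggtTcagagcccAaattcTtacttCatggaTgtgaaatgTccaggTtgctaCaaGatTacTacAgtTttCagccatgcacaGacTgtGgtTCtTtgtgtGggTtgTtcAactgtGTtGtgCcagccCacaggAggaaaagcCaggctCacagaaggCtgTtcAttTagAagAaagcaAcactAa
Rpl41 has the shortest coding region of the core set, 75 bases and a stop codon, and is shown whole because the results are graded by coding length (gene at chr10:128548114-128549305, minus strand, GRCm38).
Rpl41: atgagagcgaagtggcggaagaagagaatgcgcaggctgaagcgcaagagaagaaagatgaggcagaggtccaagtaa

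The core genes tended to have short coding regions, and a pyrimidine run at the start site was more frequent among them than among all genes. Their coding lengths, without the stop codon, ran from 75 to 1257 bases with a median of 456, against a median of 1326 for the other tested protein-coding genes. RefSeq windows from 250 bases before to 50 after the start were given for 57 of the 77. A C at the start followed by at least 4 C or T was found in 13 of the 57 (22.8%) and in 3.01% of all 27025 genes with windows. The word CCGGAAG, searched on both strands, was in 42.1% against 9.93% of all, and AAGATGGC, which can overlap it at the letters AAG, in 8.77% against 3.19%. CACGTG was in 10.5% against 8.09% and TATAAA in 10.5% against 15.7%. These are counts of letters and describe the windows only.

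All 77 core genes were detected in every library, at 10 TPM or more, and 75 were at 100 TPM or more throughout. The exceptions were Rpl12 and Rpl5. Together the 89 members held 24.2% of all TPM in WT1, 9.64% in WT2, 10.9% in WT3, 15.99% in ki1 and 27.3% in ki2. The share was high in both libraries of series 1, of either genotype. It was 2.36-fold higher in series 1 than in series 2 among wild-type libraries and 1.71-fold higher among RankCre-ki libraries. Within a series, the RankCre-ki library held a larger share than the wild-type libraries, 1.13-fold in series 1 and 1.56-fold in series 2. Of the TPM of nuclear protein-coding genes the members held 33.1, 14.5, 14.9, 20.0 and 34.2% in WT1, WT2, WT3, ki1 and ki2, which is 1.03-fold and 1.36-fold between the genotypes in series 1 and 2. The mitochondrially encoded genes held 14.7, 21.0 and 16.7% in WT1, WT2 and WT3 and 10.7 and 8.21% in ki1 and ki2, a lower share in both RankCre-ki libraries.

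The median core gene stood at 1783, 844 and 925 TPM in WT1, WT2 and WT3 and at 1587 and 2440 TPM in ki1 and ki2. Among the 50 genes with the most TPM in a library, 24, 15 and 17 were members in WT1, WT2 and WT3, and 23 and 27 in ki1 and ki2. Small and large subunit genes kept almost the same proportion. The summed TPM of the small subunit over that of the large was 0.855, 0.839 and 0.832 in WT1, WT2 and WT3 and 0.807 and 0.802 in ki1 and ki2. Without the 5 highest genes of each subunit the ratio was 0.713, 0.666 and 0.679 in wild-type and 0.736 and 0.711 in RankCre-ki libraries, so the order of the genotypes depended on those genes.

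**Figure D1:**
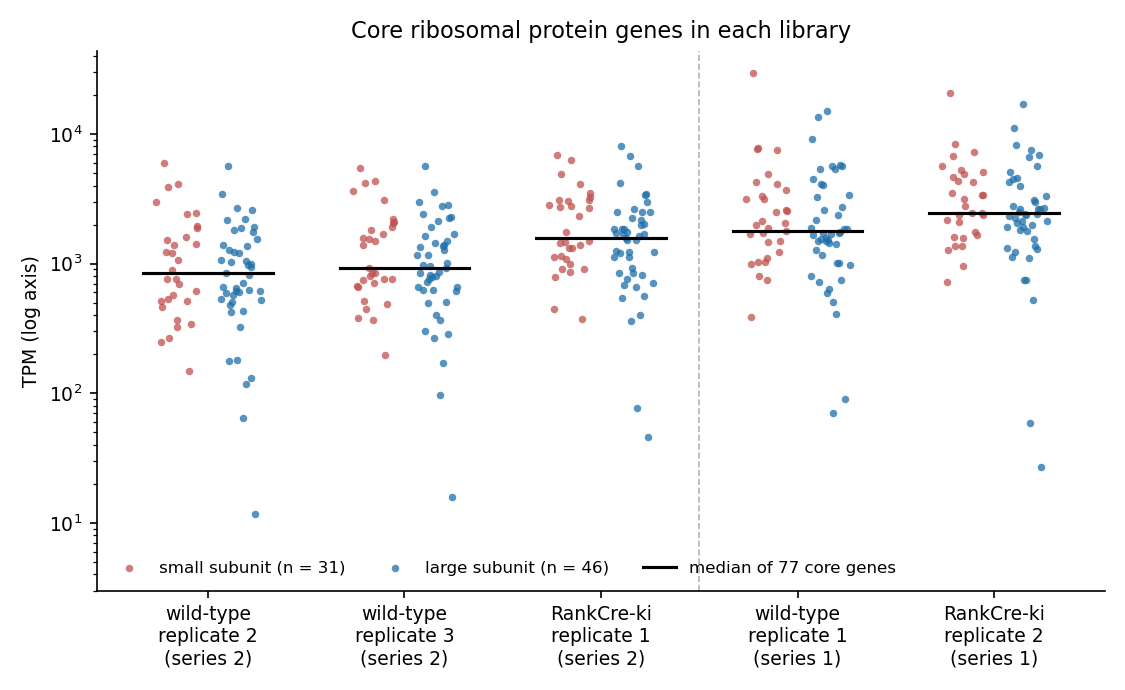
TPM of the 77 core genes (log axis) in the 5 libraries, one point per gene, with the small subunit in red, the large in blue, the median as a black line and a dashed line between the name series. Medians are 844, 925 and 1587 TPM in series 2 and 1783 and 2440 in series 1, and the lowest points are Rpl12 and Rpl5.

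Among the 10 genes with the highest mean TPM were Rps27, Rpl32, Rps14, Rps6, Rps19, Rpl13, Rpl35, Rpl13a and Rps18. TPM are corrected for length, but the series difference described below was graded by coding length. Levels of genes of unlike length are therefore not strictly comparable. Rps27, a small subunit protein with a zinc finger, was at 29602 TPM in WT1, 5981 in WT2, 5437 in WT3, 6923 in ki1 and 20673 in ki2. Rpl32 was at 14994, 2665, 3592, 6723 and 17063 TPM in the same order. Both stood higher in WT1 and ki2 than in the remaining libraries. Rps6, the ribosomal substrate of S6 kinase, was at 4930, 4076 and 4315 TPM in wild-type and 6291 and 4907 in RankCre-ki libraries, with no such step. Rps18 was at 3160, 2987, 3631, 2847 and 5699 TPM in WT1, WT2, WT3, ki1 and ki2, high in ki2 only. Rps14 was at 7817, 3886 and 4155 TPM in wild-type and 4911 and 8302 in RankCre-ki libraries.

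How much a gene varied differed widely among members. The coefficient of variation over the 5 libraries was lowest for Rpl4 (11.5%), Rpl7a (17.4%) and Rps6 (17.5%). Rpl4, a protein at the exit tunnel, was at 2711, 2594, 2832, 3391 and 2624 TPM in WT1, WT2, WT3, ki1 and ki2. Among members with a mean of at least 10 TPM it was highest for Rps12l1 (160%), Rpl36 (102%) and Rps29 (99.2%). Rpl36 was at 5383, 478 and 721 TPM in wild-type and 1682 and 8187 in RankCre-ki libraries, and Rps29 at 7689, 754, 752, 1435 and 6806 TPM in the same order. For both genes the libraries of series 1 lay far above those of series 2.

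Between any 2 libraries, the pattern over the 77 core genes followed the series more than the genotype. Pearson's correlation of log2 TPM over these genes was 0.941 to 0.985 for pairs within a series and 0.807 to 0.873 for pairs across series. WT2 and WT3 had the highest value. WT1 had 0.947 with ki2, of the other genotype, and 0.808 and 0.807 with WT2 and WT3. The points of such a correlation share a library and are not independent.

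The difference between the series was tested with limma on log2(TPM + 1) in a fit of genotype and series over all 5 libraries, a contrast chosen after the data had been seen. Of the 82 members tested, 35 were higher in series 1 at an adjusted p of at most 0.1 (Benjamini-Hochberg over 13981 genes), against 7.52% of all genes tested. None was lower, against 0.815% of all genes, and 1 member, Rpl7, was lower at an unadjusted limma p under 0.05. One of the 35, Rps12l1, passed the filter on low values through the series 1 libraries only, where it is high, so it could not have been lower, and 34 core genes remain without it. The differences of these 34 ran from 0.87 to 2.88 on the log2 scale, and the smallest adjusted p was 0.0816. Rps29 was higher by 2.88 ± 0.29 (SE), Rpl36 by 2.80 ± 0.31, Rpl37a by 2.53 ± 0.24, Rpl38 by 2.36 ± 0.18 and Rps27 by 2.03 ± 0.22, each at an adjusted limma p of 0.0816. Rpl37a and Rpl38 are named after their values were seen. Over all members the median difference was 0.89, where that of all genes was -0.24. Both libraries of series 1 lay above all of series 2 in 48 members (17.1% of all genes) and below in 1, Rpl15 (15.9% of all genes).

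Leaving out a library changed the count of 35. It was 15 without WT2 and 17 without WT3, where 68 and 81 of all genes passed in either direction. Fits without WT1, ki1 or ki2 leave 1 library in a group, so only their effect sizes are used. With a library left out the median difference was 0.68 to 1.03. The count was 1 with median-ratio scaling and 0 with no filter on low values, where 16 and 0 of all genes passed. The 34 core genes kept their direction under all 11 alternatives. With the series 1 libraries set against series 2 within a genotype, 67 of the 77 core genes were higher in series 1 in both genotypes, 6 were lower in both, and 22 were at least 2-fold higher in both. The wild-type and the RankCre-ki difference come from separate libraries. Their correlation over the 77 genes was 0.79.

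The difference between series was graded by coding length. The 9 core genes of up to 300 bases had a median log2 difference of 2.45 in wild-type and 1.61 in RankCre-ki libraries, 5.47-fold and 3.05-fold on the log2(TPM + 1) scale. In the 27 genes over 300 and up to 450 bases it was 1.43 and 1.04. In the 19 genes over 450 and up to 600 bases it was 0.96 and 0.63, and in the 22 longer genes 0.29 and 0.09. Of the shortest 9, 8 passed the test, and of the longest 22, 1 did, all higher in series 1. Of the other protein-coding genes of these lengths, 10.2% and 3.61% passed it in either direction. Among those at 200 TPM or more on average, 22.1% and 12.9% did. Over the 77 genes, Spearman's rho of coding length with the series difference was -0.79 in wild-type and -0.85 in RankCre-ki libraries, and without Rps27 and Rps29 it was -0.77 and -0.84. With the length of the whole annotated transcript it was -0.42 and -0.59. With the genotype difference it was 0.14 in series 1 and -0.16 in series 2.

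**Figure D2:**
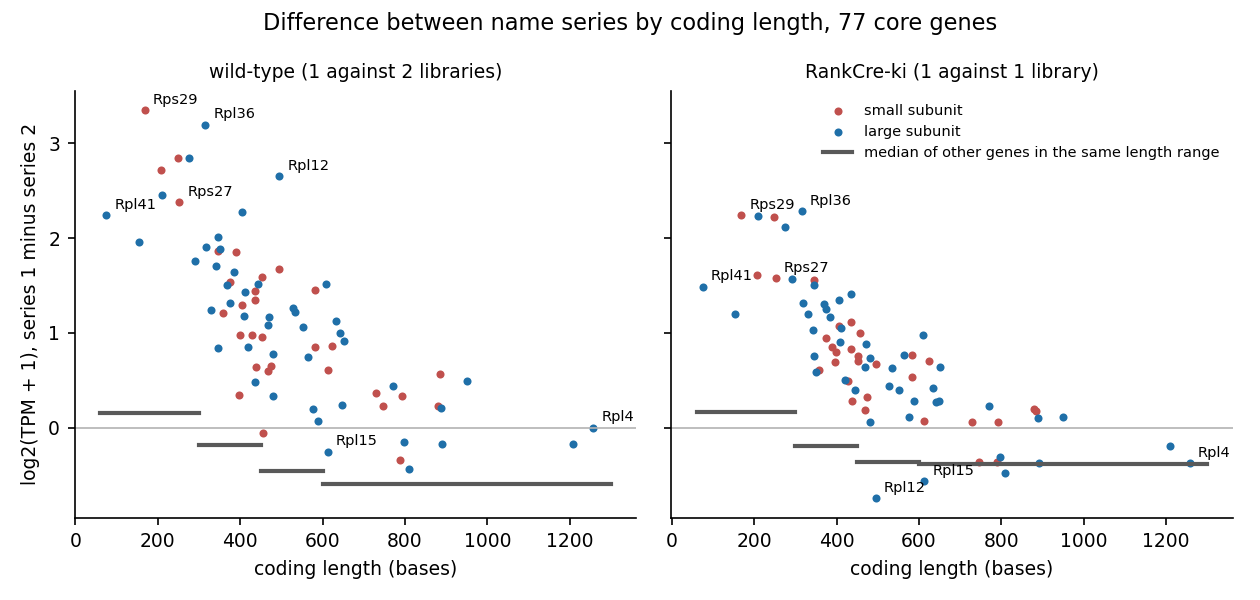
Difference in log2(TPM + 1) between series 1 and series 2 against coding length in bases for the 77 core genes, in wild-type (left) and RankCre-ki libraries (right). Red points are small and blue points large subunit genes, and grey bars the medians of other tested protein-coding genes in the same length range. Genes of up to 300 bases have medians of 2.45 and 1.61, longer than 600 bases 0.29 and 0.09.

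Other genes of up to 300 bases differed less than the core genes, and those over 600 bases differed in the opposite direction. The 284 other tested protein-coding genes of up to 300 bases had a median of 0.15 in wild-type and 0.16 in RankCre-ki libraries, and the 9390 longer than 600 bases had -0.60 and -0.38. Among those at 200 TPM or more on average, 77 genes of up to 300 bases had medians of 0.45 and 0.34. Rps27l, with the same coding length as Rps27 and the sequence printed above, was at 748, 757 and 594 TPM in WT1, WT2 and WT3 and at 626 and 960 TPM in ki1 and ki2. Its series difference was 0.35 ± 0.24 (limma adjusted p = 0.478). That the values of Rps27 and Rps27l differ was not tested.

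As shares of all TPM, the shortest 9 genes held 5.97% in WT1 and 5.25% in ki2, against 1.03, 1.09 and 1.56% in WT2, WT3 and ki1. The 22 longest held 4.52 and 5.97% in WT1 and ki2 and 3.17, 3.63 and 5.55% in WT2, WT3 and ki1. For the longest genes ki1 and ki2 held more than any wild-type library, and for the shortest the libraries of series 1 lay above all of series 2.

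**Figure D3:**
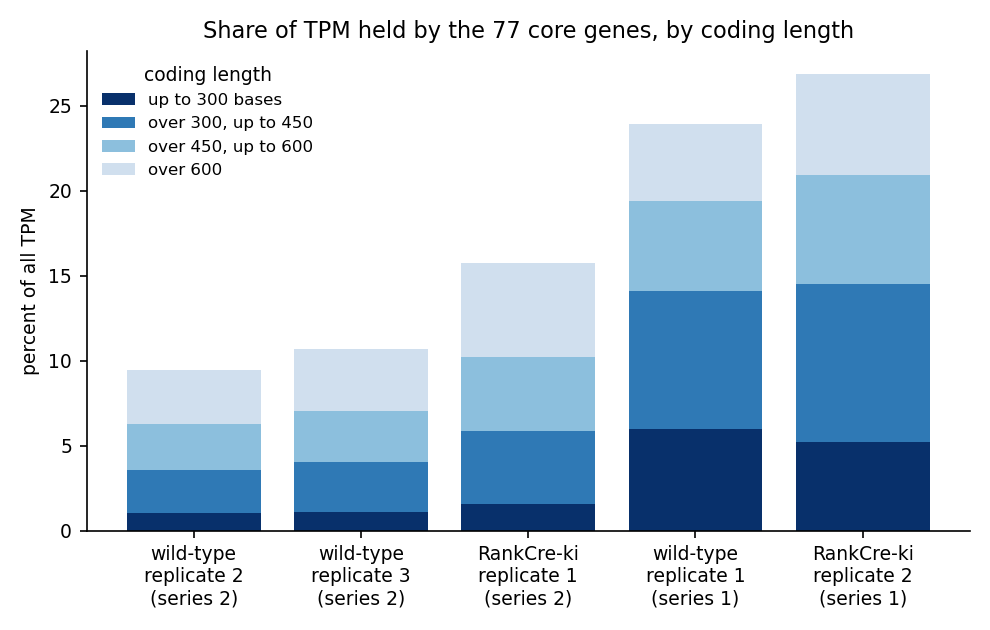
Percent of all TPM held by the 77 core genes in each library, stacked by coding length from up to 300 bases (dark) to over 600 bases (light). The shortest genes hold 5.97 and 5.25% in series 1 and 1.03 to 1.56% in series 2, and the longest 4.52 and 5.97% in series 1 and 3.17 to 5.55% in series 2.

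Between the genotypes, the question is how HSCs that develop without embryonic macrophages differ from wild-type HSCs. In bulk samples fewer cells expressing a gene and less RNA per cell cannot be told apart. No member passed the threshold, an adjusted p of at most 0.1 and a log2 fold change beyond 2, and no gene did (0% of 13981). The smallest adjusted p of a member was 0.521. At an unadjusted limma p under 0.05, 9 members of 82 were higher in RankCre-ki libraries, against 6.34% of all genes, and 0 were lower, against 0.529%. The 9 were Rps2, Rpl10, Rps27a, Rpl14, Rpl18, Rps20, Rpl29, Rpl8 and Rps23, of which the last 6 were singled out once their values were known. This count was 42 without WT1, 0 without WT2, 1 without WT3, 26 without ki1 and 0 without ki2, where 9.81, 4.77, 11.3, 1.51 and 0.951% of all genes were higher at that p. It was 0 with median-ratio scaling (4.56% of all genes) and 9 with quantile normalization (3.04%).

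The 3 genes with the smallest p and non-overlapping groups were Rps2, Rpl10 and Rps27a. Rps2, a small subunit protein at the mRNA entry, was at 1476, 1063 and 1491 TPM in WT1, WT2 and WT3 and at 2766 and 3168 TPM in ki1 and ki2. The log2 fold change was 1.16 ± 0.36 (SE, limma adjusted p = 0.521). The groups did not overlap, and RankCre-ki was higher in each series, 2.15-fold in series 1 and 2.17-fold in series 2. Rpl10, an X-linked large subunit protein that joins late in assembly, was at 1733, 820, 922, 2499 and 3008 TPM in WT1, WT2, WT3, ki1 and ki2, a log2 difference of 1.32 ± 0.43 (limma adjusted p = 0.532). Rps27a, made as a fusion with ubiquitin, was at 1979, 1238, 1379, 3072 and 3498 TPM in the same order, a log2 difference of 1.13 ± 0.38 (limma adjusted p = 0.532). For these genes the RankCre-ki library was higher in both series. None of them passed the test over all genes.

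Most members had a higher mean in RankCre-ki libraries, and so did most genes. The fold change was above 0 in 79 of 82 members, where 72.3% of all genes had one above 0. Non-overlapping groups with RankCre-ki higher were found for 23 members (18.8% of all genes), and with RankCre-ki lower for 0 (3.71% of all genes). The median log2 fold change was 0.75 for the members, 0.52 for all genes, 0.01 for 679 genes that reached 200 TPM on average and -0.05 for the 78 mitochondrial ribosomal protein genes. Scaling moved these values. With median-ratio scaling the median of all genes was 0.16 and that of the members 0.25, with 59 members and 57.1% of all genes above 0. With quantile normalization the medians were -0.09 and 0.54, with 75 members and 46.7% of all genes above 0. The members lay above the median of all genes by 0.24 as reported, 0.09 with median-ratio scaling and 0.62 with quantile normalization.

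Within the series the direction was the same in most members. The RankCre-ki library was above the mean of the wild-type libraries in both series in 62 of 82 members, against 44.5% of all genes. Over the core genes the median log2 difference was 0.39 in series 1 (1.31-fold, 1 library of each genotype) and 0.74 in series 2 (1.67-fold, 1 against 2 libraries), where all genes had 0.53 and 0.40 and genes of at least 200 TPM -0.04 and 0.07. With the series as a block, 42 members were higher at an unadjusted limma p under 0.05, against 8.89% of all genes, and 1 was lower, Rpl35, against 1.19%. The smallest adjusted p of a member in that fit was 0.156, and the median difference was 0.58. In the limma fit with an interaction no member had a genotype difference that differed between the series at an adjusted p of at most 0.1, and 4 of 82 did at an unadjusted p under 0.05, against 12.4% of all genes.

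**Figure D4:**
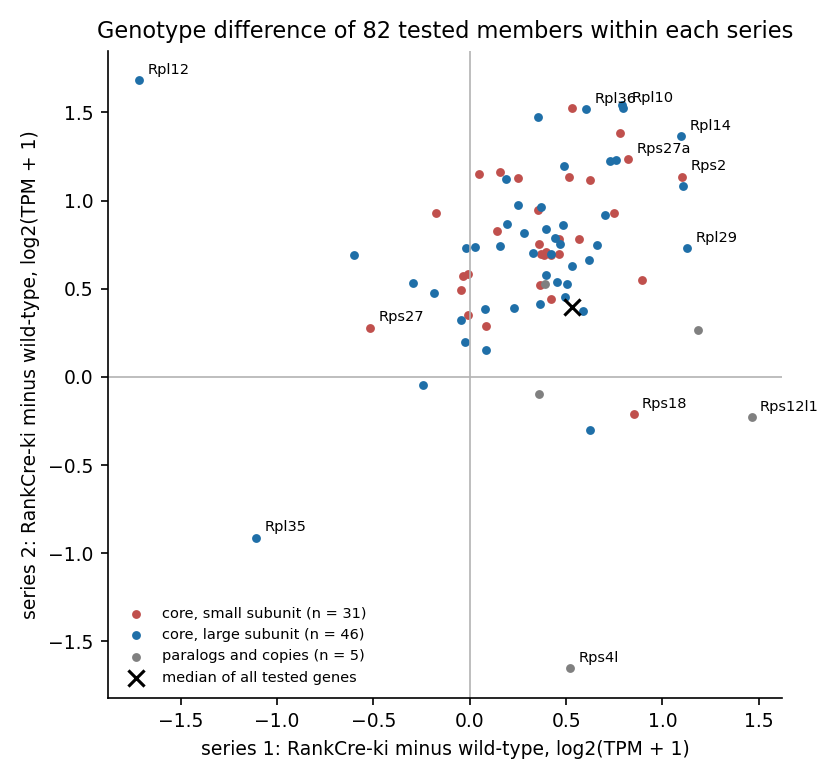
RankCre-ki minus wild-type difference in log2(TPM + 1) for the 82 tested members, within series 1 (horizontal, 1 library of each genotype) and series 2 (vertical, 1 against 2 libraries). Red and blue points are small and large subunit core genes, grey points paralogs and copies, and the cross the median of all tested genes (0.53 and 0.40). Most points are above 0 on both axes, 62 of 82, and Rpl35 is low on both.

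Rpl35 was the exception among the abundant genes. This large subunit protein near the exit tunnel was at 9156, 3463 and 3009 TPM in WT1, WT2 and WT3 and at 1716 and 4245 TPM in ki1 and ki2. The RankCre-ki library was at 0.464 of the wild-type level in series 1 and at 0.53 in series 2, but ki2 lay above WT2 and WT3, so the groups overlapped. The log2 fold change was -0.76 ± 0.60 (limma adjusted p = 0.918) and, with the series as a block, -0.996 ± 0.16 (limma adjusted p = 0.156). Its direction was the same under every setting tried.

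Among the stalk proteins, which recruit translation factors, Rplp0 was at 3233, 2183 and 2411 TPM in wild-type and 4174 and 4522 TPM in RankCre-ki libraries. Rplp1 was at 4474, 1402, 1335, 2494 and 5111 TPM and Rplp2 at 1440, 322, 398, 839 and 2386 TPM in WT1, WT2, WT3, ki1 and ki2. In Rplp0, with the longest coding region of the 3 (951 bases), the genotypes did not overlap. In Rplp1 and Rplp2 (342 and 345 bases), the series did not overlap. Rpl11, which with Rpl5 and 5S RNA restrains Mdm2, was at 1484, 649, 622, 1239 and 1917 TPM in the same order.

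For the genes of Diamond-Blackfan anaemia, no genotype difference passed the test. Rps19 was at 7451, 2429 and 3104 TPM in wild-type and 4089 and 7273 in RankCre-ki libraries (log2 fold change 0.51 ± 0.55). Rps24 was at 3141, 1394, 1819, 3029 and 5280 TPM and Rps7 at 4247, 1521, 1576, 2752 and 4691 TPM in WT1, WT2, WT3, ki1 and ki2. Rps10 was at 1095, 322, 367, 992 and 1585 TPM, Rps26 at 3302, 894, 925, 1468 and 4316 TPM and Rpl35a at 2156, 844, 983, 1214 and 2781 TPM in that order. These 6 genes, like Rps29, were higher in both series 1 libraries than in any series 2 library, at adjusted limma p of 0.0816 to 0.0975 for the series. Their genotype differences ran from 0.51 for Rps19 to 1.31 for Rps10.

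Of the X-linked genes, Rps4x was at 1783, 2462, 2065, 3065 and 2389 TPM in WT1, WT2, WT3, ki1 and ki2, with overlapping groups. Rpl36a was at 4101, 1037, 1162, 1835 and 4579 TPM and Rpl39 at 751, 131, 284, 564 and 1299 TPM in that order. These short genes were highest in series 1, while Rpl10, described above, was highest in the RankCre-ki libraries. Rpsa, also known as the laminin receptor, was at 753, 364, 710, 856 and 966 TPM. Rpl13a, which takes part in silencing of inflammatory transcripts, was at 5616, 1741, 2227, 3470 and 6828 TPM, and Rpl13 at 5382, 2194, 2783, 5669 and 7553 TPM. In Rpsa and Rpl13 ki1 and ki2 exceeded each wild-type library, and in Rpl13a the series did not overlap. Rpl41 was at 5759, 992, 1497, 2025 and 5676 TPM, again high in both series 1 libraries.

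The paralogs differed in whether they were expressed at all. Rpl3l, known from heart and skeletal muscle, and Rpl10l and Rpl39l, known from testis, were listed at 0 in all 5 libraries, while Rpl3 was at 1851 to 3005 TPM. Rpl32l and Rps3a2 were at 0 in 1 library each and below 1 TPM in the others. Rpl22l1, at 1405, 1116, 1104, 1599 and 1842 TPM in WT1, WT2, WT3, ki1 and ki2, was above its parent Rpl22 (721, 176, 301, 541 and 1221 TPM) in every library. Rps4l was at 29.5, 59.9, 3.92, 4.50 and 42.7 TPM, far below Rps4x. Rpl7l1 was at 52.1, 103, 134, 141 and 120 TPM, where Rpl7 was at 1017, 1371, 1386, 2180 and 1560 TPM. No paralog passed the genotype test.

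For several members, pseudogenes of near-identical sequence were listed with TPM of their own. Such values are uncertain because fragments of near-identical sequences may be assigned to either. Which of the 2 the fragments came from was not tested. Of the annotated pseudogenes, 999 matched 74 of the 77 core genes over at least 70% of the coding length at 90% identity or more. They held 1.40, 0.409 and 0.564% of all TPM in WT1, WT2 and WT3 and 0.752 and 1.82% in ki1 and ki2. Of the 16 with a mean of at least 100 TPM, 8 were identical to the gene over the aligned bases. In 13 core genes the copies held over 10% of the sum of gene and copies. The genes and copies that follow are named after their values were seen, apart from Rpl5 and Rps12l1.

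Rpl5 had the largest share of its sum in copies. It was listed at 70.3, 64.8 and 97.6 TPM in WT1, WT2 and WT3 and at 77.1 and 59.2 TPM in ki1 and ki2. Gm15500, identical to it over 1018 bases (chr7:114705217-114706235, minus strand, GRCm38), was at 1362, 1471, 1559, 1913 and 1539 TPM, and the copies held 95.5% of the sum on average. Summed with them, Rpl5 stood at 1433, 1536, 1663, 1990 and 1598 TPM in WT1, WT2, WT3, ki1 and ki2, and its log2 fold change turned from -0.17 to 0.21. Copies held 77.4% of the sum for Rpl27a, 69.8% for Rps23 and 51.0% for Rpl28. Rps23-ps1 was at 3295, 543, 623, 1407 and 5259 TPM, where Rps23 was at 1034, 535, 511, 1137 and 1595 TPM.

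Some copies varied sharply between libraries. Rps12l1, identical to Rps12 over 399 bases (chr7:56014016-56014414, plus strand, GRCm38), was at 319 TPM in WT1 and 880 TPM in ki2 and at most 0.376 TPM in series 2. It passed the filter on low values through the series 1 libraries alone, so its series difference is a description and not a test. Rps12 was at 390, 249, 378, 450 and 727 TPM in WT1, WT2, WT3, ki1 and ki2. Gm4332, a match of Rps20, was at 446 and 741 TPM in WT1 and ki2 and at 3.56 to 8.26 TPM in the series 2 libraries. Rps26-ps1 was at 876 TPM in WT1 and 207 TPM in WT3 and at most 4.11 TPM elsewhere. With every core gene summed with its copies, the count of members higher in series 1 was 40, where 1136 of 13889 genes passed in either direction. The median genotype difference was 0.77, and 0 members passed the genotype test. At an unadjusted limma p under 0.05, 7 members were higher, against 6.29% of all genes. Spearman's rho of coding length with the series difference was then -0.81 in wild-type and -0.89 in RankCre-ki libraries.

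**Figure D5:**
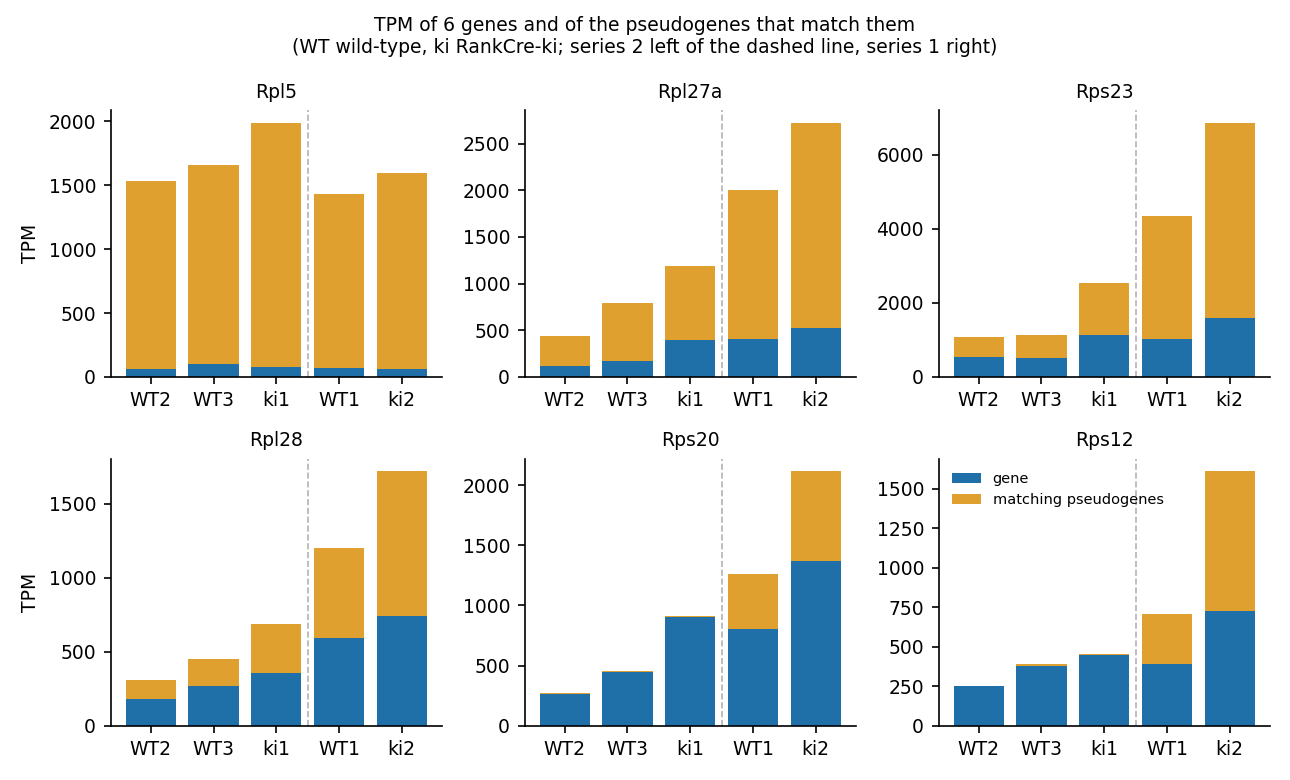
Stacked TPM of 6 core genes (blue) and of the pseudogenes that match them (orange) in each library, with series 2 left and series 1 right of the dashed line. Copies hold most of the Rpl5 sum in all 5 libraries, and for Rps20 and Rps12 they are large in WT1 and ki2 and small in the other libraries.

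Other genes of translation were followed for comparison, none of which passed the genotype test. Of the ribosomal genes outside the name rule, Fau was at 3505, 1005 and 1207 TPM in wild-type and 2189 and 4643 in RankCre-ki libraries and was higher in series 1 (log2 difference 1.42, limma adjusted p = 0.0816). Rack1, Rpl36al and Rps27rt did not pass that test. Rps27rt was at 866, 374, 340, 449 and 522 TPM in WT1, WT2, WT3, ki1 and ki2. A list of 18 translation factors and other genes with an oligopyrimidine tract had a median log2 fold change of 0.39. Of these, 3 were at an unadjusted limma p under 0.05, all higher. The median series difference of the list was -0.80 in wild-type and -0.23 in RankCre-ki libraries. Eef1a1, which brings aminoacyl-tRNA to the ribosome, was at 3015, 2545, 3983, 7397 and 6534 TPM in the same order, and Pabpc1 at 478, 1106, 1136, 514 and 282 TPM. Of 40 ribosome assembly genes 1 was higher at an unadjusted p under 0.05, Nob1, with a median of 0.42 over the list. Of 78 mitochondrial ribosomal protein genes 1 was higher and 5 were lower, with Mrps5 and Mrpl42 at the smallest p. Among all genes tested, 6.34% were higher and 0.529% lower at an unadjusted limma p under 0.05.

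Among 12 regulators of ribosome production and of translation, 1 was higher at an unadjusted limma p under 0.05, against 6.34% of all genes. Tsc1, an inhibitor of mTOR signalling, was at 0.191, 0 and 1.60 TPM in wild-type and 10.9 and 6.38 TPM in RankCre-ki libraries (log2 fold change 2.68 ± 1.06, limma adjusted p = 0.646). It reached 1 TPM in 2 libraries only because of the RankCre-ki libraries, where it is high. Its difference is therefore a description and not a test. Myc, an activator of ribosomal protein genes, was at 130, 122, 89.5, 195 and 172 TPM in WT1, WT2, WT3, ki1 and ki2, and Mycn at 31.2, 81.4, 187, 290 and 155 TPM. In Myc both RankCre-ki libraries lay above the wild-type libraries, with a log2 difference of 0.70 ± 0.45. The differences were 1.53 ± 1.51 (SE) for Tsc2, 1.83 ± 1.31 for Rps6kb2, 1.25 ± 1.30 for Mtor, 0.75 ± 1.28 for Eif4ebp2 and 0.70 ± 1.19 for Rptor. They were -0.19 ± 0.82 for Rps6kb1, -0.40 ± 0.67 for Eif4e, -0.57 ± 0.46 for Eif4ebp1 and -0.65 ± 1.08 for Larp1. Tsc2, Rps6kb2 and Rptor were under 1 TPM in WT2.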

How the data were processed

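HSCs sorted from bone marrow were sequenced in 5 libraries made by a full-length protocol with oligo(dT) priming, template switching and tagmentation. Per the labels, the submitters' processing notes name bcl2fastq 2.20.0, featureCounts 2.0.1 and build mm10. The authors aligned reads with gsnap and tested counts with DESeq2. The deposited table holds TPM per gene, provided by the authors. The software that gave the TPM is not given in the sources used here. Each library summed to 1000000 TPM, and 179 values lay above 0 and under 1e-06 TPM. How fragments that match several genes were assigned is not given in the sources used here. Whether strand was used is not given either. The 92 spike-in rows, at 0 in all libraries, were removed. Depth per sample is unknown from TPM, and precision rests on the spread between libraries.

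Groups came from titles and the treatment label. Values were taken as log2(TPM + 1), a scale on which changes of weakly expressed genes are too small. A gene was tested if it reached 1 TPM in 2 or more libraries (13981 genes, 82 of 89 members), with limma 3.58.1 in R 4.3.3 (lmFit, eBayes with trend, two-sided), no covariate, and Benjamini-Hochberg adjustment. A call needed an adjusted p of 0.1 or less and a log2 fold change beyond 2 in size. Count models were not used because TPM are not counts. An exact rank test of 3 against 2 libraries cannot go below p = 0.2 and was not used. The limma code was tested on simulated data.

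The members and all lists were chosen with earlier results of these data known, and the series contrast, the interaction, the coding-length comparison, the 200 TPM background and the summing of pseudogenes were added after the data had been seen. Named members were, by rule, the 10 with the highest mean, the 3 with the smallest p in each direction with non-overlapping groups (none was lower), the 3 with the smallest and the largest coefficient of variation, genes with given roles, paralogs with their parents and members at 0 in a library. Some genes that the rule takes are not reported here. Annotation was GENCODE M21 (GRCm38, the same build as mm10), found for all 89 members. Pseudogene transcripts were matched to core transcripts with BLAST+ 2.17.0. Promoter windows were from RefSeq (GRCm38.p6). Coding length excludes the stop codon. Alternatives were a pseudocount of 0.1, no filter, a filter of 5 TPM, median-ratio scaling, quantile normalization, an adjusted p of 0.05, no fold limit, the series or the replicate number as a block, and leaving out each library. Python 3.11.15, pandas 2.3.3 and matplotlib 3.10.9 were used.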

Additional observations from a re-analysis of the deposited data

Results flagged for a closer look

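In 7 named members the RankCre-ki library lay on one side of the wild-type library in series 1 and on the other side of both wild-type libraries in series 2. The difference between the series, series 1 minus series 2 in log2(TPM + 1), was -0.37 for Rpl4, -0.75 for Rpl41, -0.61 for Rps19, -0.80 for Rps27, -1.11 for Rps29 and -0.59 for Rps6, and 1.06 for Rps18. The interaction term of the limma fit gave adjusted p-values from 0.316 for Rps29 to 0.752 for Rpl41 for these genes, so none differed between the series by that test. In series 1 the differences of Rpl4, Rpl41, Rps19 and Rps6 were between -0.05 and -0.01. No group held 4 or more libraries, so single libraries were not screened as outliers.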

How the results depend on the processing

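No member passed the genotype threshold as reported or under any alternative except without ki1, where 2 did (Rpl36 at 2.73 and Rps12l1, high in the series 1 libraries only, at 6.86, adjusted p at most 0.1). Leaving out single libraries gave counts of 0 to 2. The count of 9 members at an unadjusted limma p under 0.05 was 0 with median-ratio scaling, 43 with name series as a block, 0 with the replicate block, and 0 to 42 with single libraries left out. The median of 0.75 was 0.64 with the replicate block, 0.25 to 0.76 under the settings that keep all libraries, and 0.44 to 1.12 with a library left out. The count of 23 members above all wild-type libraries was 1 with median-ratio scaling and 24 to 69 with a library left out, and that of members below was 2 with median-ratio scaling, 2 with quantile normalization and 0 to 3 with a library left out. The share held in WT1 rose from 24.2 to 33.1% when only nuclear protein-coding genes were counted. The count of 35 members higher in series 1 was 0 with no filter, 1 with median-ratio scaling, 15 without WT2 and 17 without WT3. The count of 51 at an unadjusted limma p under 0.05 was 41 to 52 under settings that keep more than 1 library in each group. The cause of these changes was not tested.

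Replicate numbers are shared by the genotypes for 2 pairs. Deviations of same-numbered libraries correlated at -0.38 and -0.20, the numbers are not said to mark animals or batches, and the paired fit (the replicate block) called 0 members.

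Of 39 named members tested, 25 kept the direction of their genotype difference under all alternatives. With median-ratio scaling it turned to -0.20 for Rps18, -0.16 for Rps14, -0.18 for Rps6, -0.13 for Rps4x, -0.37 for Rpl4, -0.35 for Rps27l, -0.024 for Rpl3, -0.22 for Rpl7a and -0.23 for Rps27, and with quantile normalization to -0.12 for Rpl4. Rps27 turned to -0.062 with the series as a block and -0.15 with the replicate block, and Rpl5 to 0.0012 with the replicate block and 0.21 with its copies. With single libraries left out, the range was -0.51 to 1.07 for Rps27, -0.36 to 0.0138 for Rpl5, -1.93 to 1.07 for Rps4l, -0.047 to 0.32 for Rpl4, -0.19 to 0.81 for Rps18, -0.031 to 0.73 for Rps14, -0.19 to 2.06 for Rps29, -0.15 to 0.47 for Rps27l, -0.00031 to 1.20 for Rpl35a and -0.014 to 1.48 for Rpl41.

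With 5 libraries, series, transcript sex and kit cannot be told apart, and with 1 wild-type library in series 1 the genotype difference there has no replicate. Depth is unknown, so the error of low members cannot be stated.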
